A study of Rattus norvegicus with 6 samples.

Results

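The genes described here encode ligands and receptors of the vascular endothelial growth factor (VEGF) and platelet-derived growth factor (PDGF) systems: Vegfa, Vegfb, Vegfc, Pdgfa, Pdgfb, Pdgfc, Pdgfd, Pdgfra, Pdgfrb and Flt1. They were taken by gene symbol from a deposited table of 17273 genes, and all 10 were found there. Of the 10, 8 passed the filter on low counts, which kept 13747 genes, while Pdgfb and Pdgfd did not. The cells were cultured wild-type nucleus pulposus cells, from the gelatinous core of the intervertebral disc of male Sprague Dawley rats. One group of 3 libraries came from cells given 10 mM lactate for 8 h and the other of 3 libraries from untreated control cells, both grown in DMEM with fetal bovine serum. The labels name neither the form of the lactate (acid or salt) nor the source of each library (which culture, which animal). Each p-value below thus reflects the spread among these libraries only, and that spread may be technical.

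VEGF ligands are secreted dimers. VEGF-A and placental growth factor (Pgf) bind the receptor tyrosine kinase VEGFR1 (Flt1), VEGF-A also binds VEGFR2 (Kdr), which carries most of its signal in endothelial cells, and VEGF-C and VEGF-D bind VEGFR3 (Flt4). Neuropilins (Nrp1, Nrp2) are co-receptors without a kinase of their own. PDGF chains pair as dimers and act on mesenchymal cells such as fibroblasts and pericytes: the A and C chains bind the alpha receptor (Pdgfra), the D chain the beta receptor (Pdgfrb), and the B chain both. The healthy nucleus pulposus has no blood vessels, and its cells are known to make VEGF-A.

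Libraries held 30291357 to 35512356 counts in the lactate group and 33584741 to 38989574 in the control group. Read counts were brought to a common library size (CPM) with TMM factors, which scale each library to the bulk of its genes. These factors were 0.702 to 0.806 in lactate and 1.32 to 1.36 in control libraries, and the difference matters for direction: over all genes the median log2 fold change came to −0.10 under TMM and to −0.95 when only totals were used. With edgeR, 66.0% of the 13747 genes were called at an adjusted p under 0.05, 31.4% higher and 34.6% lower with lactate. With library totals 12.6% were called higher and 61.7% lower. Directions below are with TMM factors, and each member's value with library totals stands beside it. In bulk RNA, fewer cells of a type and less RNA per cell cannot be told apart.

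Of the 8 members tested, 4 were called higher with lactate (Vegfa, Vegfb, Pdgfa, Pdgfc), 3 lower (Vegfc, Pdgfra, Pdgfrb), and Flt1 was not called. That is 87.5% of the members, beside 66.0% of all genes, and their median log2 fold change was 0.42, beside −0.10. The lactate and control libraries did not overlap in 7 of the 8, with 4 above control and 3 below it, beside 72.2% of all genes, 33.7% above and 38.4% below. With library totals 2 were higher (Vegfa, Pdgfa) and 4 lower (Vegfc, Pdgfra, Pdgfrb, Flt1), 6 of 8 beside 74.3% of all genes, with a median of −0.44 beside −0.95. Vegfa, Pdgfa, Vegfc and both PDGF receptor genes were called in the same direction under both scalings, while Pdgfc and Flt1 changed sign between them.

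Upstream sequence was read for the members to show the start regions of the ligand genes with the largest rise, Vegfa and Pdgfa, beside that of Pdgfra, which fell. RefSeq windows on the rat assembly GRCr8 were found for 9 of the 10 members, and the 250 bases before the annotated start are given 5′ to 3′ in the direction of the gene. They lie at chr9:22452604-22452853 (plus strand) for Vegfa, chr12:20759116-20759365 (plus strand) for Pdgfa and chr14:33408517-33408766 (minus strand) for Pdgfra. Vegfa has a further annotated start downstream, whose window is not shown. Capitals mark the GC-box core GGGCGG on either strand, a motif read by factors of the Sp family.
Vegfa: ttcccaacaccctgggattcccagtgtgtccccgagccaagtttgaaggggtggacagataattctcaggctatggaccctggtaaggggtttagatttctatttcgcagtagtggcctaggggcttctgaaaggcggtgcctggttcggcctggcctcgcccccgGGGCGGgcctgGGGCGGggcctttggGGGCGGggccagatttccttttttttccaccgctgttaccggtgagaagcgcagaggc
Pdgfa: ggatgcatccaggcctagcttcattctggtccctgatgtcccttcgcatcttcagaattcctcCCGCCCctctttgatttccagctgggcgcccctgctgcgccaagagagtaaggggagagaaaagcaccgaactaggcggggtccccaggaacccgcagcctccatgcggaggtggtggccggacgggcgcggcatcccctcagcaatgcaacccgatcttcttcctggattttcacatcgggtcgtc
Pdgfra: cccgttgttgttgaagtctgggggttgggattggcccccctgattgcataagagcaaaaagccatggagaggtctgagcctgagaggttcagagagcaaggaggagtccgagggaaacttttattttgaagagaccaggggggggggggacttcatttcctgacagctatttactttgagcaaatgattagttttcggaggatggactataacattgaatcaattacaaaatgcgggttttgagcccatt
The core occurred 3 times in the Vegfa window, 1 time in that of Pdgfa and 0 times in that of Pdgfra. These 3 windows do not stand for the rest. Among the other tested members with a window, the core occurred 4 times for Vegfb and 0 times for Pdgfc, both called higher. For Vegfc, called lower, it occurred 2 times, and for Flt1, not called, 3 times. The window of the further Vegfa start held 0. The core was in the windows of 7 of the 9 members and in 30.5% of all 33469 windows of this length. The form ACGTG of the hypoxia response element core, on either strand, was in 1 of the 9 (Pdgfd) and in 16.6% of all windows. Other forms of that core, and sequence beyond the 250 bases, were not searched. G and C made up 60.4% of the Vegfa window, 60.8% of the Pdgfa window and 47.2% of the Pdgfra window, against a median of 51.2% over all windows. For Vegfb, Pdgfc, Vegfc and Flt1 the values were 73.2, 56.0, 72.4 and 73.2%. These matches describe letters only and were not related to the response.

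Vegfa, the main angiogenic ligand, was at 507, 535 and 345 CPM in lactate libraries, against 75.0, 91.3 and 83.7 CPM in control libraries. Every lactate library was above every control library, and lactate library 3 was the lowest of its group. The rise was 5.55-fold (log2 fold change 2.47 ± 0.17 SE, edgeR adjusted p = 6.7e-06), and 1.60 on the log2 scale with library totals (edgeR adjusted p = 1.9e-05). Its log2 fold change stood at percentile 97.1 of those of all genes. Within each library Vegfa stood at percentile 94.9 to 96.2 of the FPKM of all genes with lactate and at percentile 84.8 to 87.7 in control, where FPKM is the count scaled by transcript length and library total.

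Vegfb, a ligand of Flt1 best known from heart and muscle, was at 22.3, 20.0 and 19.9 CPM with lactate and at 10.4, 9.37 and 10.3 CPM in control. The groups did not overlap, and the log2 fold change was 1.05 ± 0.13 (edgeR adjusted p = 0.00013). Its raw counts, however, were 492, 426 and 570 with lactate and 476, 484 and 485 in control. With library totals it differed by 0.19 and was not called (edgeR adjusted p = 0.25, within a range of 5.9e-13 to 0.26 over all alternatives, edgeR, DESeq2 and limma fits together).

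Vegfc, the lymphangiogenic ligand of Flt4, went the other way. It was at 1.27, 0.80 and 1.89 CPM with lactate and at 3.52, 4.51 and 3.67 CPM in control, on 17 to 54 counts per lactate library and 161 to 233 per control library. All lactate libraries were below all control libraries. The log2 fold change was −1.55 ± 0.33 (edgeR adjusted p = 0.0031), and −2.38 with library totals.

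Pdgfa, the A chain and the most abundant ligand of the family, was at 186, 217 and 124 CPM with lactate and at 39.3, 38.9 and 37.8 CPM in control. The lactate libraries lay apart from control and spread more widely among themselves, with library 3 again the lowest. The rise was 4.55-fold (log2 fold change 2.19 ± 0.19, edgeR adjusted p = 1.9e-05), and 1.31 on the log2 scale with library totals (edgeR adjusted p = 0.00011). The ratio of counts to FPKM, which reflects the transcript length used by the authors, differed between libraries for this gene. It corresponded to 1362, 1121 and 1250 bases in lactate libraries 1, 2 and 3, against 1316 to 1331 in control, so that FPKM gave lactate library 2 a further lead (136 FPKM, against 98.6 and 80.1 in the other lactate libraries).

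Pdgfc, a chain secreted in latent form and activated by cleavage, was at 23.6, 22.9 and 31.2 CPM with lactate and at 14.7, 15.9 and 17.5 CPM in control. The groups did not overlap on this scale, with lactate library 3 the highest. The log2 fold change was 0.69 ± 0.16 (edgeR adjusted p = 0.0042). Its sign turned with library totals, to −0.15 (edgeR adjusted p = 0.50, within a range of 2.8e-05 to 0.50 over all alternatives), and on FPKM the groups overlapped, with 7.02 to 10.8 in lactate and 8.73 to 10.9 in control.

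The remaining chains were scarce. Pdgfb, the B chain known from platelets and endothelial cells, had 6, 3 and 0 counts in lactate libraries and 0 in each control library, so that control allows up to 3 counts per library, or 0.0581 to 0.0656 CPM, for counting error only. The authors' deposited table gives it a log2 fold change of 5.29 with an adjusted p of 0.046, on those 9 reads. Pdgfd, the D chain and like Pdgfc a latent ligand, had 8, 7 and 2 counts with lactate and 12, 15 and 8 in control. Both stayed below the filter, so their levels were not tested with edgeR.

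**Figure D1:**
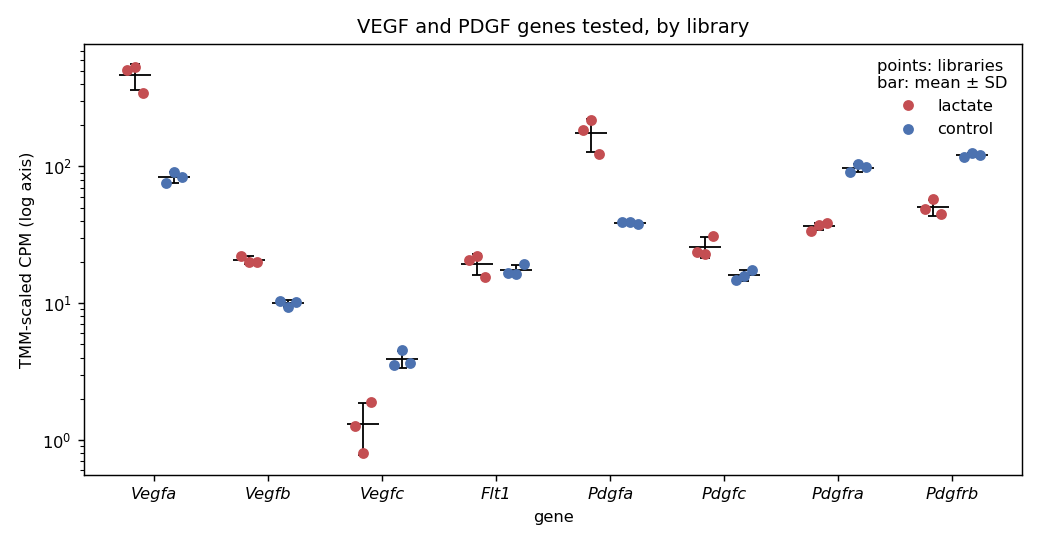
TMM-scaled CPM (log axis) of the 8 tested VEGF and PDGF genes in each library, lactate in red and control in blue, with mean and SD as black bars. Vegfa lies at 345 to 535 CPM with lactate and 75.0 to 91.3 CPM in control, Pdgfra and Pdgfrb lie lower with lactate, and the groups overlap for Flt1.

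Both PDGF receptor genes fell. Pdgfra, the alpha receptor and a marker of fibroblasts and mesenchymal progenitors, was at 33.9, 37.4 and 38.3 CPM with lactate and at 90.5, 104 and 99.1 CPM in control. Pdgfrb, the beta receptor and a marker of pericytes, was at 48.5, 57.7 and 44.8 CPM with lactate and at 117, 125 and 121 CPM in control. For each gene all lactate libraries were below all control libraries, by wide margins. The log2 fold change of Pdgfra was −1.42 ± 0.11 (edgeR adjusted p = 9e-06), and −2.28 with library totals. That of Pdgfrb was −1.27 ± 0.12 (edgeR adjusted p = 2.7e-05), and −2.13 with library totals. With TMM factors these log2 fold changes stood at percentile 16.2 (Pdgfra) and 19.2 (Pdgfrb) of those of all genes. Fold changes in these libraries also fell with transcript length, and with that trend removed both were smaller, at −0.94 and −0.93, and still called. In rank among all genes, Pdgfra stood at percentile 60.4 to 62.3 of FPKM with lactate and 76.9 to 79.7 in control, and Pdgfrb at percentile 71.0 to 75.2 with lactate and 86.7 to 88.1 in control.

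Flt1, which encodes VEGFR1 and, by splicing, a secreted decoy that the gene-level counts do not separate, was at 20.6, 22.2 and 15.6 CPM with lactate and at 16.7, 16.5 and 19.3 CPM in control. The groups overlapped, and lactate library 3 was the lowest of all libraries. The log2 fold change was 0.15 ± 0.16 (edgeR adjusted p = 0.43). Each direction could be had from another setting. It was called lower with library totals (−0.72, edgeR adjusted p = 0.0026), and called higher with the length trend removed (0.67, edgeR adjusted p = 0.0065) or without lactate replicate 3 (0.32, edgeR adjusted p = 0.046), within a range of 0.0026 to 1.0 over all alternatives. On FPKM all lactate libraries were below control, at 1.74 to 2.16 against 3.05 to 3.65, while by rank among all genes within a library they were above it, at percentile 47.6 to 53.2 against 44.1 to 46.7.

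**Figure D2:**
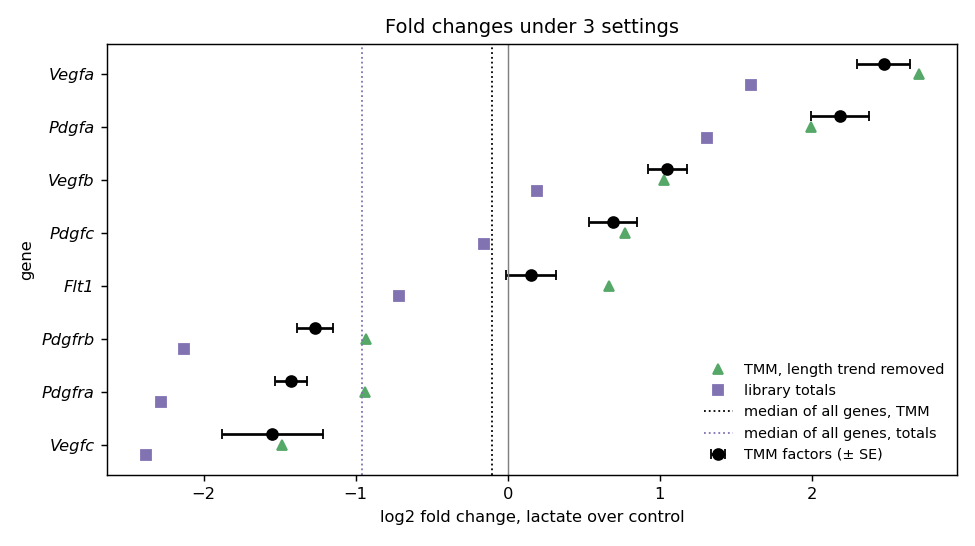
Log2 fold change of lactate over control for the 8 tested genes, with TMM factors (black circles, ± SE), with the length trend removed (green triangles) and with library totals (purple squares); dotted lines are the medians of all genes, −0.10 and −0.95. Vegfa and Pdgfa lie right of 0 and Vegfc, Pdgfra and Pdgfrb left of 0 in all 3, while Pdgfc and Flt1 cross it.

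Levels of different genes were compared on FPKM, which is per length. With lactate, Pdgfa (105 ± 28.5 FPKM, SD, n = 3) and Vegfa (96.0 ± 15.0) led and overlapped with each other. Pdgfc (8.35 ± 2.16), Vegfb (8.32 ± 0.637) and Pdgfrb (8.26 ± 0.695) followed as overlapping neighbours, then, each apart from its neighbour, came Pdgfra (4.03 ± 0.498), Flt1 (1.99 ± 0.218) and Vegfc (0.446 ± 0.220). In control the order was Pdgfa (39.4 ± 0.701), Pdgfrb (34.8 ± 1.22), Vegfa (31.9 ± 2.68), Pdgfra (19.7 ± 1.14), Pdgfc (9.73 ± 1.10), Vegfb (7.36 ± 0.516), Flt1 (3.29 ± 0.317) and Vegfc (2.39 ± 0.288), and of these neighbours only Pdgfrb and Vegfa overlapped. Pdgfd and Pdgfb were last in both groups, under 0.1 FPKM in every library.

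Shares within a family do not depend on how libraries are scaled. Vegfa took 91.9, 93.1 and 89.4% of the summed FPKM of the VEGF ligands Vegfa, Vegfb and Vegfc with lactate, and 74.6, 78.4 and 76.6% in control. With Pgf and Vegfd counted in, Vegfa took 78.3 to 80.5% of 5 VEGF ligands with lactate and 67.2 to 69.9% in control, and Pgf took 11.4 to 13.7% with lactate and 4.16 to 5.16% in control. Among the 3 ligands, the share of Vegfc was 0.369, 0.214 and 0.773% with lactate and 5.61, 6.20 and 5.40% in control. Among the PDGF ligands Pdgfa took 93.1, 95.0 and 88.1% with lactate and 82.0, 80.3 and 78.0% in control. The groups did not overlap in any of these shares, nor in those of Vegfb, Pdgfc and Pdgfd. Shares of a family add up to the whole, so they are not separate results: a larger share of Vegfa or Pdgfa lowers the rest. On FPKM itself the groups overlapped for Vegfb, Pdgfc and Pdgfd. The shares of 5 VEGF ligands were described only and not tested. Those of Vegfa, Vegfb and Vegfc among the 3 VEGF ligands each had an exact two-sided permutation p of 0.1. So did those of Pdgfa, Pdgfc and Pdgfd among the PDGF ligands, that of Pdgfd resting on only 2 to 15 counts per library. This is the smallest p that 3 against 3 libraries can give (0.14 adjusted over 13 shares and ratios). Between the 2 PDGF receptors, Pdgfra was 32.1, 30.1 and 36.1% of their sum with lactate and 35.5, 36.6 and 36.3% in control (exact permutation p = 0.2, 0.22 adjusted), with overlap of the groups and a mean difference of −3.35 percentage points, which was −2.03 without lactate replicate 2 and −4.98 without lactate replicate 3. With 3 libraries a group no p under 0.1 was possible, so this does not show an equal proportion. The log2 ratio of Vegfa over Vegfb was 3.52 ± 0.316 with lactate and 2.11 ± 0.218 in control (SD, n = 3 each), and that of Pdgfa over Pdgfc was 3.65 ± 0.704 with lactate and 2.02 ± 0.186 in control (exact permutation p = 0.1 each).

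**Figure D3:**
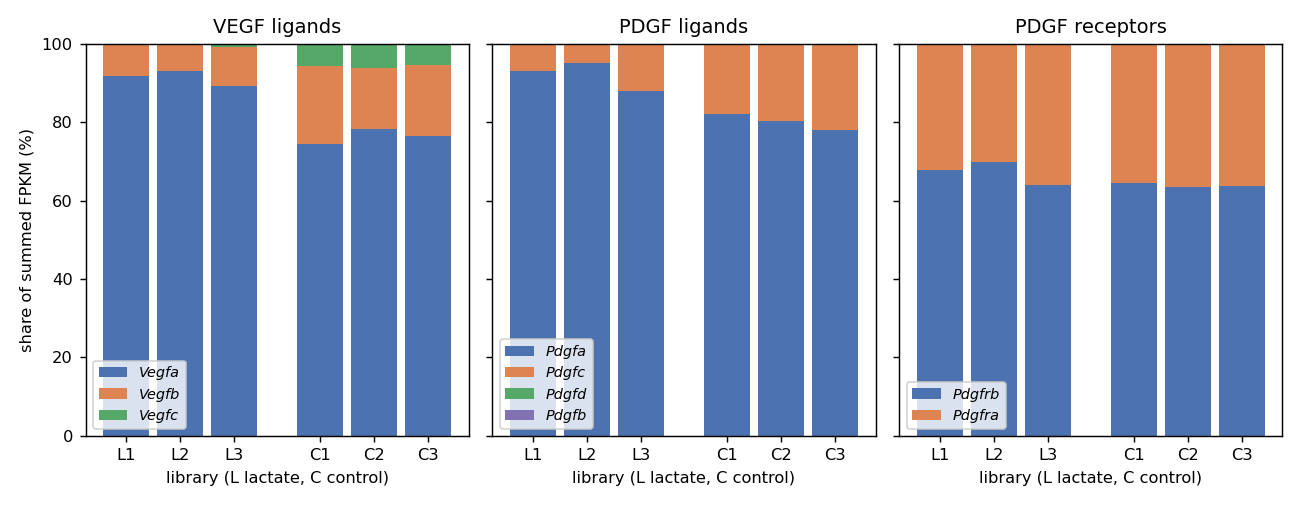
Share of each gene in the summed FPKM of its family (%), per library, lactate libraries L1 to L3 left of control libraries C1 to C3. Vegfa makes up 89.4 to 93.1% of the sum of Vegfa, Vegfb and Vegfc with lactate, against 74.6 to 78.4% in control, and Pdgfra makes up 30.1 to 36.1% of the PDGF receptors with lactate and 35.5 to 36.6% in control.

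The balance of ligand to receptor mRNA, examined after the values were seen and given without a test, shifted in the PDGF system. The 4 PDGF ligands summed to 106, 143 and 91.0 FPKM with lactate and to 49.0, 48.8 and 49.8 FPKM in control, while both receptors together summed to 11.3, 12.9 and 12.7 FPKM with lactate and to 51.9, 56.4 and 55.3 FPKM in control. Ligand over receptor was thus 9.41, 11.1 and 7.16 with lactate and 0.945, 0.866 and 0.901 in control. On raw counts, which weigh long transcripts more, it was 1.87 to 2.55 with lactate and 0.240 to 0.262 in control. These ratios keep the trend of fold changes with transcript length. With that trend removed the log2 fold changes were 1.99 for Pdgfa, −0.94 for Pdgfra and −0.93 for Pdgfrb, all still called. Vegfa over Flt1 was 50.1, 49.1 and 45.2 with lactate and 9.14, 11.3 and 8.81 in control. Vegfc and its receptor gene Flt4 were both lower, and their ratio overlapped between groups, at 0.125 to 0.337 with lactate and 0.208 to 0.310 in control. An mRNA ratio says nothing of protein amounts or of where the proteins act.

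**Figure D4:**
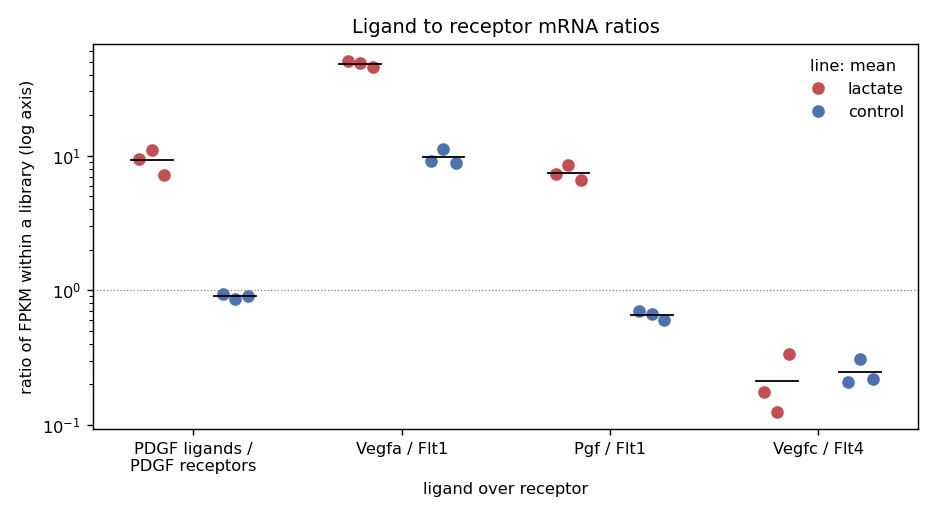
Ratio of ligand to receptor FPKM within each library (log axis), lactate in red and control in blue, with group means as lines and a dotted line at 1. The PDGF ratio is 7.16 to 11.1 with lactate and 0.866 to 0.945 in control, and Vegfc over Flt4 overlaps between the groups.

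Further ligands and receptors of the same systems were mixed: 5 could be tested, with 2 called higher and 2 lower (1 and 3 with library totals), or 80% beside 66.0% of all genes. Pgf, the placental growth factor that binds Flt1, was at 34.0, 42.3 and 22.9 CPM with lactate and at 2.62, 2.48 and 2.61 CPM in control. It rose 12.8-fold, more than any of the 8 tested members (log2 fold change 3.68 ± 0.24, edgeR adjusted p = 4.5e-06, and 2.81 with library totals). Flt4, the receptor of VEGF-C and VEGF-D, was at 19.4, 16.5 and 14.8 CPM with lactate and at 45.3, 38.9 and 44.8 CPM in control (−1.35 ± 0.14, edgeR adjusted p = 4.3e-05). Nrp1 fell as well, by 2.16 on the log2 scale, to 0.873 to 2.30 CPM with lactate, against 6.81 to 7.78 CPM in control. Nrp2, which made up 93.4 to 95.5% of the FPKM of VEGF receptors and neuropilins with lactate and 89.1 to 90.6% in control, had a difference of 0.04 ± 0.10 that missed the threshold (edgeR adjusted p = 0.74), although library totals gave a call of lower (−0.81) and removal of the length trend a call of higher (0.52). Pdgfrl, a PDGF receptor-like gene, was higher by 1.02 ± 0.20 and not called with library totals (0.15). Kdr, the main VEGF-A receptor of endothelium, had 9 counts over the lactate group and 0 over the control group. Vegfd, named after its values were seen, was at 3.31 to 5.83 CPM with lactate and 4.50 to 7.45 CPM in control and was not called (−0.57 ± 0.29, edgeR adjusted p = 0.11). With library totals it was called lower (−1.43, edgeR adjusted p = 0.0018), and on FPKM all lactate libraries were below control, at 0.777 to 1.34 with lactate and 2.02 to 3.27 in control.

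Proteases that activate these ligands were called in 8 of 8 tested, 5 higher and 3 lower (2 and 3 with library totals), beside 66.0% of all genes called, 31.4% higher and 34.6% lower. Plau, the urokinase that cleaves latent PDGF-D, rose to 169, 184 and 89.6 CPM with lactate, against 15.5, 13.7 and 16.0 CPM in control (log2 fold change 3.29 ± 0.26, edgeR adjusted p = 1.1e-05). Plat, the tissue plasminogen activator that cleaves latent PDGF-C, rose to 95.3, 93.8 and 82.2 CPM, against 33.4, 37.2 and 37.4 CPM in control (1.33 ± 0.11, edgeR adjusted p = 1.4e-05). Furin, the proprotein convertase that processes PDGF-A, PDGF-B and VEGF-C, fell to 49.2 to 52.9 CPM with lactate, against 111 to 127 CPM in control (−1.19 ± 0.10, edgeR adjusted p = 1.5e-05), and the related Pcsk7 fell by 0.85. Plau, Plat, Furin and Pcsk7 kept direction and call with library totals. Pcsk5 (1.15), Pcsk6 (1.03) and the membrane protease St14 (0.75) were higher but not called with library totals, where St14 was at −0.12. Adamts3, which cleaves VEGF-C, had 0 to 0.376 CPM with lactate and 1.03 to 1.37 CPM in control (−2.42 ± 0.71, edgeR adjusted p = 0.015) and was no longer called once control replicate 2 was left out (edgeR adjusted p = 0.052, with a range of 0.00046 to 0.052 over all alternatives).

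Genes that relay the signal below these receptors were called in 62.5% of 32, close to the 66.0% of all genes, with 8 higher and 12 lower (0 and 25 with library totals) and a median of −0.07. The PI3-kinase subunit Pik3r2 (−1.39 ± 0.13) and the Ras GTPase-activating protein Rasa1 (−1.60 ± 0.15) fell. The kinase Pik3ca (0.91 ± 0.11) and the adaptor Grb2 (0.83 ± 0.11) were higher and were not called with library totals, where Grb2 was at −0.02. Of 17 brakes on these receptors 6 were higher and 5 lower (1 and 12 with library totals), or 64.7% called. The feedback inhibitors of the Ras pathway Spry1, Spry2 and Spred2 fell by 2.59, 2.20 and 1.96. Socs3, an inhibitor of cytokine signalling, rose by 2.44 ± 0.25, and the phosphatase Ptpn1 (1.27) and the endocytic receptor Lrp1 (0.91) were higher but not called with library totals.

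The fall of the PDGF receptor genes was set beside that of 27 other receptor tyrosine kinases, of which 12 were lower, 4 higher and 11 not called (22 lower and 1 higher with library totals), with a median of −0.47. The share called was 59.3%, under the 66.0% of all genes. Erbb2 fell by 2.89 ± 0.33, the collagen receptor Ddr1 by 1.90 ± 0.14 and the Wnt receptor Ror2 by 1.30 ± 0.10. The ephrin receptor Epha2 rose by 1.36 ± 0.17, while Ptk7 (0.50) and Fgfrl1 (0.47) were called higher with TMM factors and lower with library totals (−0.37 and −0.39). The median of Pdgfra, Pdgfrb and Flt1 against this list was not tested. Of 26 other secreted growth factors, 7 were higher and 9 lower (1 and 15 with library totals), or 61.5% called. Areg, a ligand of the EGF receptor, rose by 2.40 ± 0.26, while Bdnf and Fgf10 fell by 2.56 ± 0.23 and 2.21 ± 0.13 and the Kit ligand Kitlg fell by 0.80 ± 0.11. Nrg1 (1.14) and Ccn2 (0.93) were higher but not called with library totals.

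Secreted inhibitors of angiogenesis were called in 8 of 13, 6 higher and 2 lower (6 and 6 with library totals), with a median of 0.20. The share called, 61.5%, was under the 66.0% of all genes. Thbs1, thrombospondin 1, fell to 1869 ± 328 CPM with lactate, against 10234 ± 1474 CPM in control (SD, n = 3; −2.45 ± 0.16, edgeR adjusted p = 5.5e-06). Col18a1, the source of endostatin, rose by 1.60 ± 0.11, Timp2, a metalloproteinase inhibitor, by 1.46 ± 0.12, and Sparc, a matrix protein that binds VEGF-A and PDGF, by 1.67 ± 0.14, all 3 called higher also with library totals (0.74, 0.60 and 0.81). Sema3a, a guidance cue and neuropilin ligand, fell by 1.30 ± 0.48, at 0.651 CPM on average with lactate and 1.59 CPM in control, and lost its call with the length trend removed, with the replicate block and without any library but lactate replicate 1 (adjusted p = 0.0010 to 0.12 over all alternatives, edgeR, DESeq2 and limma fits together). Without such a library Thbs1 was the 1 inhibitor called lower.

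**Figure D5:**
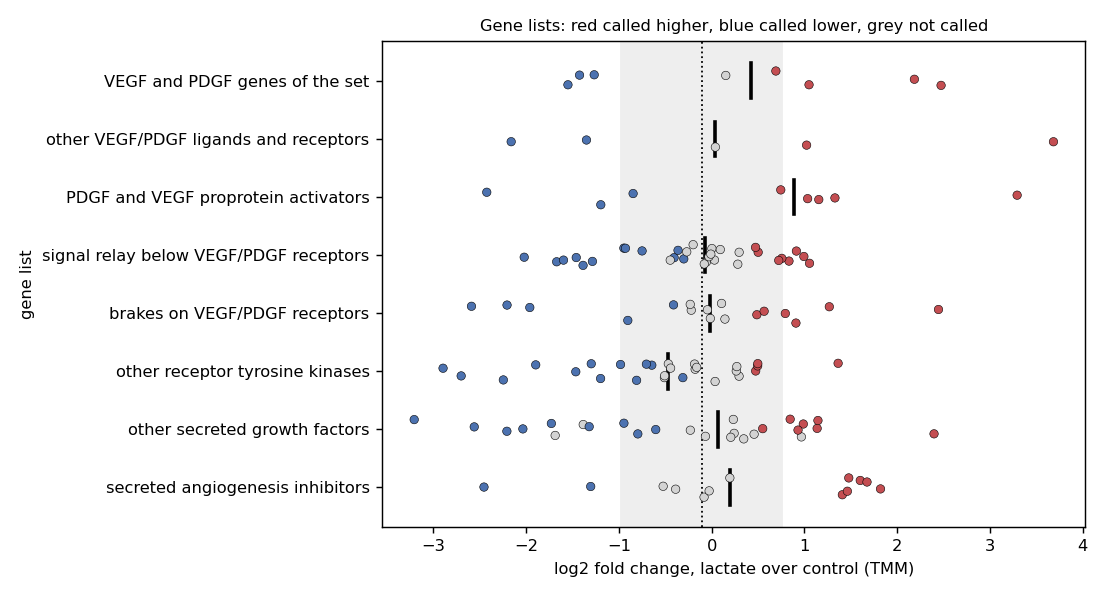
Log2 fold changes (TMM factors) of the tested genes of each list, each point 1 gene, red called higher, blue called lower and grey not called at an edgeR adjusted p under 0.05; black ticks are list medians, the dotted line and grey band the median and middle 50% of all genes (−0.98 to 0.76). The members lie mostly outside the band, with Vegfa and Pdgfa on the right and Vegfc, Pdgfra and Pdgfrb on the left.

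Markers of cells known for these receptors were examined beside the results. Of all genes 66.0% were called, 31.4% higher and 34.6% lower (74.3%, 12.6% and 61.7% with library totals). Among tested markers the share called was 50% for endothelial cells, 80% for pericytes and smooth muscle and 77.8% for fibroblasts and annulus. It was 62.5% for nucleus pulposus and notochord and 100% for the few macrophage markers tested. Of 13 endothelial markers 7 were in the table and 4 were tested, 2 called higher and 2 not called (1 higher and 1 lower with library totals). Their summed level was 149 to 178 CPM with lactate and 76.5 to 80.6 CPM in control, nearly all of it Eng (108 and 60.9 CPM on average) and Egfl7 (57.2 and 16.1 CPM), while Kdr, Tek and Erg had under 10 counts in every library. Of 11 pericyte and smooth muscle markers 10 were in the table and tested, 4 higher and 4 lower (2 and 8 with library totals). Their summed level of 2419 to 2982 CPM with lactate and 2276 to 2568 CPM in control was mostly Tagln (1157 CPM on average with lactate and 757 CPM in control) and Acta2 (774 and 759 CPM). Kcnj8 (−4.01), Notch3 (−1.57), Myh11 (−1.17) and Cspg4 (−0.54) fell, and Cspg4 was not called with the length trend removed (0.04). Des (1.99), Mcam (1.79), Tagln (0.61) and Cnn1 (0.39) were higher. With library totals Des and Mcam were still called higher, while Tagln (−0.25) and Cnn1 (−0.47) were called lower. Fibroblast and annulus markers summed to 108390 to 156980 CPM with lactate and 33200 to 38545 CPM in control, mostly from Col1a1 (99462 to 143720 CPM with lactate and 28732 to 34630 CPM in control), with 6 of 9 higher and 1 lower (5 and 2 with library totals). The fibroblast and annulus marker called lower with TMM factors was Mkx (−2.36). The part of all these markers in the results was not tested. For the labelled cell type, Acan was abundant, with 164769 counts over the lactate and 344920 over the control group. It was not called with TMM factors (−0.06, edgeR adjusted p = 0.59) and was called lower with library totals (−0.92). Col2a1, however, had only 55 and 39 counts. The notochord markers Tbxt and Krt19 had 0 over the lactate group and 12 and 9 over the control group. The table held 10 nucleus pulposus and notochord markers, of which 8 were tested, 2 higher and 3 lower (1 and 5 with library totals). Cd24 (2.32) and Sox9 (1.45) were higher, Sox9 not with library totals. Pax1 (−0.88), Cdh2 (−1.11) and Foxa2 (−1.97) fell, and Krt8 was not called (−0.34, edgeR adjusted p = 0.13). Of 9 macrophage markers 5 were in the table, summing to 4.18 to 5.39 CPM with lactate and 9.64 to 10.6 CPM in control, mostly Cd14 (2.84 and 9.36 CPM on average), which fell by 1.72. The other one tested, Cd68, was called higher (1.48, edgeR adjusted p = 0.011) and not with library totals.

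By the root mean square difference of log2 CPM, centred per gene over the 6 libraries, the annotated gene most like Vegfa was Nfkbiz (0.083 log2 units), among 3 nearest genes of which the other two carry no gene name in the table. Those most like Pdgfra were Ulk2, Esyt2 and Ascc3 (0.037, 0.041 and 0.055 log2 units).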

How the data were processed

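Per the file headers, the authors deposited raw read counts per gene, FPKM, and a comparison of their own with log2 fold changes, p-values and adjusted p-values. The aligner, counting tool, annotation and strand setting are not stated in these sources. The submitters' processing notes list mouse builds (GRCm38, mm10) although gene names are those of rat, so no mapping coordinates are given. RefSeq's GRCr8 served for names (14063 of 17273, or 81.4%, were found there) and for promoter windows. A second deposited table, of genes the authors selected, was not used.

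Counts were tested as deposited in edgeR 4.0.16 under R 4.3.3 by its quasi-likelihood test (TMM factors, filterByExpr, group as the only term), with Benjamini-Hochberg adjustment over 13747 genes and a threshold of 0.05. Log2 fold changes are lactate over control, each with its SE. Shares and ratios of FPKM were compared by exact permutation tests in scipy 1.17.1. A count of 0 allows up to 3 counts. Overlapping genes, antisense genes and genes with near-identical copies are uncertain. The test was also run on simulated data with known changes, as many up as down, in a small part of the genes. Those data held no shift of the bulk of genes between groups, so that run cannot decide between TMM factors and library totals. Members, lists and the length-trend setting were chosen with earlier results of these data known. All members were named, and from each list the called genes with the smallest p, up to 3 in each direction, with every gene of the lists of further ligands and receptors and of proteases; some genes that the rule names are not reported here. Alternatives were library totals, RLE or upper-quartile factors, 2 other filters, DESeq2 1.42.0, limma 3.58.1 (voom, and trend on FPKM in log2 with 1 or 0.1 added), a glmTreat fold threshold of 1.2, a replicate block, removal of the length trend, and leaving out each library.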

Additional observations from a re-analysis of the deposited data

How the results depend on the processing

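Vegfa, Pdgfa, Vegfc, Pdgfra and Pdgfrb kept direction and call in all 18 alternatives (log2 fold changes of 1.55 to 2.70, 1.31 to 2.41, −2.38 to −1.24, −2.28 to −0.94 and −2.13 to −0.93). The others depended on the scaling. With library totals, log2(FPKM + 1) and log2(FPKM + 0.1) the members called higher numbered 2 in each (4 with TMM factors), Vegfb was at 0.19, 0.16 and 0.18 and not called, Pdgfc turned to −0.15, −0.22 and −0.24, and Flt1 turned to −0.72, −0.52 and −0.70. The first of these settings omits the TMM factors and the FPKM settings never used them. Flt1 was also at −0.00094 with upper-quartile factors and was called at 0.67 with the length trend removed. In the same 3 settings Nrp2 was at −0.81, −0.83 and −0.83, St14 at −0.12, −0.088 and −0.13, Grb2 at −0.017, −0.041 and −0.043, Ptk7 at −0.37, −0.36 and −0.38, and Fgfrl1 at −0.39, −0.35 and −0.40. Nrp2 was at −0.12 with upper-quartile factors and, with each library left out, at −0.0031 (without lactate replicate 1) to 0.12 (without lactate replicate 2). With each library left out, genes called numbered 8026 to 9407 (9079 with all), members called higher 4 to 5, and Flt1 was at 0.055 to 0.32. Shares and ratios kept their signs in every alternative, one of which (Vegfd added to the VEGF ligands) was chosen after seeing the data, except that 0.1 FPKM added to each value turned the share of Pdgfb (0.034 percentage points) to −0.077, by the added constant. Of 432 list counts 67 moved by over 1.5 times. The replicate block gave 8814 called genes and no change in any member's call. Same-numbered libraries deviated with correlations of 0.0078, 0.038 and 0.084, and libraries of different number with −0.11 to 0.071. These values do not settle whether the samples were paired. As the labels state no pairing, the numbers were not taken to pair the samples. A library left out of a share leaves 0.2 as the smallest p. For Pdgfb, Pdgfd and Kdr depth limits what can be said.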
